A study of Mus musculus with 8 samples.

Results

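The genes described here are the subunits of hypoxia-inducible factor (HIF), the iron-dependent enzymes that hydroxylate it, and the ubiquitin ligase subunit that recognises the hydroxylated form. The 8 members were taken by gene symbol: the subunits Hif1a, Epas1 and Arnt, the prolyl hydroxylases Egln1, Egln2 and Egln3, the asparagine hydroxylase Hif1an, and Vhl. They are 8 of the 18193 genes measured and hold 21 of the 34945 probe sets with a single gene symbol. RNA came from myotubes of C2C12, an established mouse myoblast line that fuses into muscle fibres in low serum. Cells were differentiated for 3 days in 2% serum and then infected with adenovirus. RNA was taken 3 days after infection and run on Affymetrix whole-genome arrays. In the GFP group the virus carried green fluorescent protein alone, and in the GFP-PGC-1α group it carried the GFP-tagged transcriptional coactivator PGC-1α. The GFP+DFO and GFP-PGC-1α+DFO groups received the same viruses together with 100 µM deferoxamine (DFO), an iron chelator. Each of the 4 groups held 2 arrays, which the design text calls biological duplicates. All 4 groups carried virus and GFP, so no uninfected cells were compared, and the construct was overexpressed from a vector in every culture that held it.

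HIF is a pair of proteins, an alpha subunit (HIF-1α from Hif1a or HIF-2α from Epas1) and the shared partner ARNT. When oxygen, ferrous iron and 2-oxoglutarate are present, the EGLN enzymes hydroxylate prolines of the alpha subunit, VHL binds the hydroxylated protein, and the proteasome destroys it. HIF1AN, also called FIH, hydroxylates an asparagine of the alpha subunit and so blocks its binding to the coactivators p300 and CBP. Iron chelation takes the metal from these enzymes, so HIF-α protein can persist in oxygen. Egln1 and Egln3 are themselves known HIF target genes in many cell types. The arrays measured transcripts only, so neither protein nor enzyme activity was observed.

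Intensities are on the linear scale of the deposited values, in arbitrary units, and array medians lay between 59.5 and 62.8. The probe set used for Ppargc1a, which encodes PGC-1α, read 28.6 and 37.3 with GFP, 26.6 and 88.1 with GFP+DFO, and 7036 to 7930 on the 4 arrays with the construct. A check of the labelled cell type used 13 markers of myotubes. Their summed intensity was 80462 to 83776 with GFP, 66809 to 66830 with GFP-PGC-1α, 28766 to 29240 with GFP+DFO and 16261 to 17420 with GFP-PGC-1α+DFO, and 0 of the 13 lay below the 25th percentile of both arrays in any group. With DFO 12 of the 13 fell in GFP myotubes and 13 of 13 in PGC-1α myotubes, by limma at an adjusted p of 0.05. Their median log2 changes were -2.11 and -2.63, and 12.5% and 14.2% of all genes fell. With the construct 0 of the 13 rose and 4 fell without DFO, and 1 rose and 11 fell under DFO. Of all genes 9.73% and 18.9% were called in either direction there. Of 11 measured markers of undifferentiated or dividing myoblasts, 3 rose and 4 fell with DFO in GFP myotubes, and their summed intensity was 2669 to 2818 against 3532 to 3645 with GFP. In PGC-1α myotubes 3 of the 11 rose and 2 fell with DFO, with sums of 3216 to 3462 against 3793 to 3822. The shares of all genes raised and lowered with DFO were 11.8% and 12.5% in GFP, and 11.4% and 14.2% in PGC-1α myotubes. With the construct 1 of the 11 rose and 1 fell without DFO, and 2 rose and 3 fell under DFO. For beta-actin, probe sets at the 5′ end read 0.897 to 0.921 of those at the 3′ end on the 4 arrays without DFO, and the ratio was 0.859 and 0.868 with GFP+DFO, and 0.753 and 0.811 with GFP-PGC-1α+DFO. The part of these differences in the changes described here was not tested. In bulk RNA, fewer cells of a type and less RNA per cell cannot be told apart. An alternative scale set each array to its poly-A spike-ins, bacterial control transcripts, and there the median change of all genes moved from -0.08 to 0.13 for PGC-1α without DFO, -0.05 to 0.45 for PGC-1α under DFO, -0.02 to 0.05 for DFO in GFP and 0.01 to 0.36 for DFO in PGC-1α myotubes.

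Under iron chelation the transcripts of every prolyl hydroxylase, of Vhl and of Hif1a were higher, while those of Epas1, Arnt and Hif1an did not pass the test. DFO raised 5 of the 8 members in GFP myotubes and lowered 0 by limma at an adjusted p of 0.05, against 11.8% of all genes raised and 12.5% lowered. In PGC-1α myotubes 5 of the 8 rose and 0 fell, against 11.4% of all genes raised and 14.2% lowered. At an unadjusted p under 0.05 the counts in either direction were 6 and 7 of 8, against 35.7% and 37.3% of all genes. The 5 that rose were Hif1a, Egln1, Egln2, Egln3 and Vhl in each background. The median log2 change of the 8 members was 0.41 in GFP and 0.81 in PGC-1α myotubes, beside -0.02 and 0.01 over all genes. The mean differences of these comparisons share no arrays with each other, but their tests share an estimate of spread from all 8 arrays. Each comparison also shares its arrays with those of the construct.

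PGC-1α lowered Egln2 and Egln3 and left 6 of the 8 members short of the test without DFO. The 2 called falls stand against 4.77% of all genes lowered and 4.96% raised, and 9.73% were called in either direction. Under DFO 2 members were called, Epas1 upward and Egln3 downward, against 18.9% of all genes called in either direction, so the members' count of 2 of 8 was near the background. At an unadjusted p under 0.05 the counts were 6 without and 4 under DFO, against 27.7% and 32.2% of all genes. The median log2 change of the 8 was -0.27 without DFO and -0.14 under DFO, beside -0.08 and -0.05 over all genes.

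**Figure D1:**
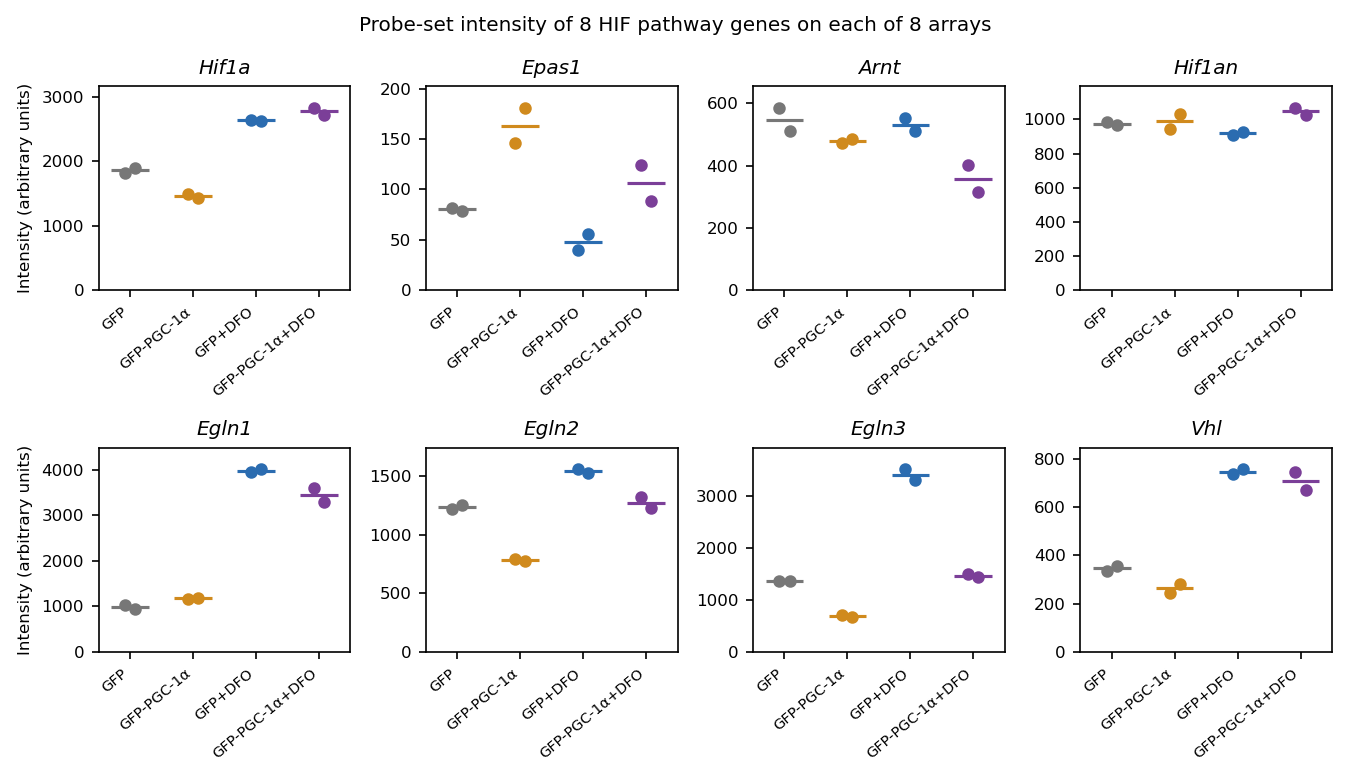
Each panel plots the deposited intensity (vertical axis, arbitrary units, starting at 0) of the brightest probe set of one gene on each array, with a bar at the mean of the 2 arrays of a group. Egln1 and Egln3 stand highest in the GFP+DFO group, and Egln3 on the GFP-PGC-1α+DFO arrays (1432 and 1489) lies close to its level with GFP alone (1360 and 1364).

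RefSeq's table for mouse build GRCm38.p6 held the start-site sequence of 7 of the 8 members, all but Epas1. The 250 bases before the start site are shown for the 5 genes that rose with DFO, because HIF binds DNA at a short core, ACGTG or GCGTG. Sequences run 5′ to 3′ on the gene's strand, and capitals mark ACGTG or GCGTG on either strand (CACGT and CACGC being the reverse reading).
Egln1: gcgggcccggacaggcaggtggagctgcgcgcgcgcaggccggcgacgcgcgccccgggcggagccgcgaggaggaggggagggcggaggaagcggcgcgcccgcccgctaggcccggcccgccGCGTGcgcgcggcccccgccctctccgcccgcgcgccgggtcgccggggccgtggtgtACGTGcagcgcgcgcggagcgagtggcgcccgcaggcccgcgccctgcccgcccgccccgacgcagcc
Egln3: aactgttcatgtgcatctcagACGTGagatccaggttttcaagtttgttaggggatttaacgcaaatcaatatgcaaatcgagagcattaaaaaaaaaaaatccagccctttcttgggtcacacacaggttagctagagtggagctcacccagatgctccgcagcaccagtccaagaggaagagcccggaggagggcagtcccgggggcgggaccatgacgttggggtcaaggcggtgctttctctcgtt
Egln2: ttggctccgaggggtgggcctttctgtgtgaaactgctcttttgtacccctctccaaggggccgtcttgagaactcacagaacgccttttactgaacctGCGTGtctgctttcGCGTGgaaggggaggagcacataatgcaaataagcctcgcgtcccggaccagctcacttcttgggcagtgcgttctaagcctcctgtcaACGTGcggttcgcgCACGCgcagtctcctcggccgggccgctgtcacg
Hif1a: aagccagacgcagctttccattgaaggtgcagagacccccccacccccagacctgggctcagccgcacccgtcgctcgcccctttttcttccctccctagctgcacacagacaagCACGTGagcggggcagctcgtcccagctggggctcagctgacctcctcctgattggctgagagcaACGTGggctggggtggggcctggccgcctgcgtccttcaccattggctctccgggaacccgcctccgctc
Vhl: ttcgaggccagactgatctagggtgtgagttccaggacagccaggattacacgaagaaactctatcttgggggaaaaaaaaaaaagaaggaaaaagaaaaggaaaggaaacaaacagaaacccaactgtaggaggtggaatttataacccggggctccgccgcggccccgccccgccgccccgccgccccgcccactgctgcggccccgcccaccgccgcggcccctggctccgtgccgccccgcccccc
Both strands were searched, and the palindrome CACGTG, which holds ACGTG on each strand, was counted as 1 site. The Egln1 window (chr8:124949255-124949504, minus strand) held 1 ACGTG, 68 to 64 bases before the start, and 1 GCGTG. The Egln3 window (chr12:54203875-54204124, minus strand) held 1 ACGTG, 229 to 225 bases before the start. The Egln2 window (chr7:27166803-27167052, minus strand, the first of 2 listed start sites) held 1 ACGTG and 3 GCGTG. The Hif1a window (chr12:73907617-73907866, plus strand) held 2 ACGTG sites, and the Vhl window (chr6:113623744-113623993, plus strand) held 0 of either. Among members that did not rise, the Arnt window held 1 GCGTG and the Hif1an window 0 of either. The second listed Egln2 start held 1 GCGTG. Of 32851 windows of the same length in the table, 16.6% held ACGTG, 28.2% held GCGTG and 38.6% held at least 1 of them. A match is a string of letters and not a measured binding site, and these windows do not cover introns or distant sequence.

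Egln1 encodes PHD2, the prolyl hydroxylase that sets HIF-1α levels in most cells in normal oxygen. Its brightest probe set, 1423785_at, read 1029 and 945 with GFP, 1170 and 1183 with GFP-PGC-1α, 3955 and 4013 with GFP+DFO, and 3605 and 3286 with GFP-PGC-1α+DFO. The arrays with DFO and those without did not overlap. DFO raised it 4.04-fold in GFP myotubes (log2 change 2.01 with SE 0.09; limma adjusted p = 3e-04), and 2.93-fold in PGC-1α myotubes (1.55 ± 0.09; limma adjusted p = 0.000439). Its log2 change with the construct was 0.25 ± 0.09 without DFO (limma adjusted p = 0.153) and -0.21 ± 0.09 under DFO (limma adjusted p = 0.191). That second value turned to 0.29 on the spike-in scale, and neither value was called on either scale. With trend and robust options both passed (limma adjusted p = 0.0166 and 0.0331), and the first also passed among genes above the median level (0.0463).

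The other Egln1 probe set, 1451110_at, moved further with DFO. In a fit of every probe set, used for all but the brightest, 18.7% of probe sets were called with DFO in GFP and 20.7% in PGC-1α myotubes, 5.61% and 13.4% with PGC-1α without and under DFO, and 0.117% for the interaction. It read 243 and 213 with GFP, 362 and 389 with GFP-PGC-1α, 2658 and 2739 with GFP+DFO, and 2181 and 2118 with GFP-PGC-1α+DFO. In that fit it rose 11.9-fold in GFP myotubes (log2 change 3.57 ± 0.11; limma adjusted p = 0.000371) and 5.72-fold in PGC-1α myotubes (2.52 ± 0.11; limma adjusted p = 0.000343). It also rose with the construct without DFO, by 0.72 ± 0.11 on the log2 scale (limma adjusted p = 0.0303), where the brighter probe set did not pass. The probe sets of Egln1 thus had the same direction with DFO but sizes whose 95% intervals did not overlap, 1.76 to 2.27 for the brighter and 3.29 to 3.85 for the other in the same fit. The position of the probe sets along the transcript was not analysed here.

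Egln3 encodes PHD3, a prolyl hydroxylase whose transcript is strongly induced by hypoxia in many cells. Its brightest probe set, 1418649_at, read 1364 and 1360 with GFP, 711 and 665 with GFP-PGC-1α, 3504 and 3292 with GFP+DFO, and 1489 and 1432 with GFP-PGC-1α+DFO. The 4 groups did not overlap, and the 2 middle groups, GFP and GFP-PGC-1α+DFO, lay 0.10 apart on the log2 scale against a pooled SD of 0.05. The fall with PGC-1α was 1.98-fold without DFO (log2 change -0.99 ± 0.09; limma adjusted p = 0.00503) and 2.33-fold under DFO (-1.22 ± 0.09; limma adjusted p = 0.00156). The rise with DFO was 2.49-fold in GFP myotubes (1.32 ± 0.09; limma adjusted p = 0.000642) and 2.12-fold in PGC-1α myotubes (1.09 ± 0.09; limma adjusted p = 0.000955). Egln3 was the only member called in all 4 comparisons, and each call held when any 1 of the 8 arrays was left out. The call for PGC-1α without DFO ended in a fit of these 4 arrays alone (limma adjusted p = 0.0687) and on the scale of the spike-ins without trp (-0.81; limma adjusted p = 0.0575).

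The second Egln3 probe set, 1418648_at, gave like values. It read 1215 and 1162 with GFP, 516 and 522 with GFP-PGC-1α, 3022 and 3075 with GFP+DFO, and 1461 and 1330 with GFP-PGC-1α+DFO. In the fit of every probe set it had log2 changes of -1.20 ± 0.10 and -1.13 ± 0.10 with the construct without and under DFO (limma adjusted p = 0.00716 and 0.00419). With DFO it had 1.36 ± 0.10 in GFP and 1.43 ± 0.10 in PGC-1α myotubes (limma adjusted p = 0.00141 and 0.00104). All 4 passed, so both probe sets of Egln3 carried the same calls.

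Egln2 encodes PHD1, a prolyl hydroxylase that is not generally induced by hypoxia, and was read by a single probe set, 1416533_at. It stood at 1214 and 1252 with GFP, 791 and 778 with GFP-PGC-1α, 1556 and 1529 with GFP+DFO, and 1319 and 1223 with GFP-PGC-1α+DFO. The GFP-PGC-1α arrays were the lowest and the GFP+DFO arrays the highest, while GFP and GFP-PGC-1α+DFO overlapped. PGC-1α lowered it 1.57-fold without DFO (log2 change -0.65 ± 0.08; limma adjusted p = 0.0128), and under DFO its change was -0.28 ± 0.08 (limma adjusted p = 0.0748), which turned to 0.22 on the spike-in scale. The change under DFO passed among genes above the median level (limma adjusted p = 0.0173) and with trend and robust options (0.0101). DFO raised it 1.62-fold in PGC-1α myotubes (0.69 ± 0.08; limma adjusted p = 0.00361) and 1.25-fold in GFP myotubes (0.32 ± 0.08; limma adjusted p = 0.0426).

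The Egln2 calls against the GFP group were near the threshold. The rise with DFO in GFP myotubes was not called without GFP replicate 1 or 2 (limma adjusted p = 0.152 and 0.104), GFP-PGC-1α replicate 1 or 2 (0.086 for each) or GFP+DFO replicate 1 or 2 (0.193 and 0.166). The fall with PGC-1α without DFO was not called without GFP replicate 1 or 2 (limma adjusted p = 0.0665 and 0.0598), GFP-PGC-1α replicate 1 or 2 (0.0856 and 0.0732) or either GFP+DFO array (0.0527). Its size moved little in those fits, from -0.67 to -0.63, and on the spike-in scale it was -0.44 (limma adjusted p = 0.168). The rise with DFO in GFP myotubes was also not called on the spike-in scale (0.39; limma adjusted p = 0.135), with every probe set on its own (0.0736) or in a fit of only these groups (0.0795). The rise in PGC-1α myotubes held without any 1 array but not in a fit of only its groups (limma adjusted p = 0.0513).

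Hif1an, the asparagine hydroxylase, varied least among the members. Its brightest probe set, 1428576_at, read 985 and 966 with GFP, 946 and 1031 with GFP-PGC-1α, 909 and 929 with GFP+DFO, and 1068 and 1027 with GFP-PGC-1α+DFO. The groups lay within a narrow band and neighbours in the order overlapped, except that the GFP+DFO arrays were below the rest. Its log2 change with DFO was -0.09 in GFP myotubes (95% interval -0.30 to 0.13) and 0.08 in PGC-1α myotubes (-0.13 to 0.30). With the construct it was 0.02 without DFO (-0.20 to 0.23) and 0.19 under DFO (-0.03 to 0.40), the last of which was called at 0.69 on the spike-in scale (limma adjusted p = 0.0377), where the median of all genes stood at 0.45. The intervals on the deposited scale therefore left out a change of 1.5-fold in either direction. Its other probe sets, which read 429 to 800 and 64.2 to 108, did not pass in any comparison.

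Vhl encodes the subunit of a ubiquitin ligase that binds hydroxylated HIF-α. Its brightest probe set, 1434708_at, read 334 and 357 with GFP, 243 and 283 with GFP-PGC-1α, 737 and 757 with GFP+DFO, and 748 and 672 with GFP-PGC-1α+DFO. The DFO groups overlapped each other and stood above both groups without DFO. DFO raised it 2.16-fold in GFP myotubes (log2 change 1.11 ± 0.11; limma adjusted p = 0.00247) and 2.70-fold in PGC-1α myotubes (1.43 ± 0.11; limma adjusted p = 0.001), and each call held when any 1 array was left out. The GFP-PGC-1α arrays lay below the GFP arrays, at a log2 change of -0.40 ± 0.11 that did not pass (limma adjusted p = 0.0964). That change passed among genes above the median level (limma adjusted p = 0.0179) and with trend and robust options (0.0183). Under DFO the change with the construct was -0.08 (95% interval -0.36 to 0.21), which turned to 0.04 with quantile normalization and to 0.43 on the spike-in scale, uncalled on each.

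The dimmer Vhl probe set, 1421071_at, read 158 and 179 with GFP, 121 and 157 with GFP-PGC-1α, 372 and 364 with GFP+DFO, and 297 and 353 with GFP-PGC-1α+DFO. It rose with DFO by 1.13 ± 0.17 in GFP and by 1.24 ± 0.17 in PGC-1α myotubes on the log2 scale (limma adjusted p = 0.0114 and 0.0081). Both probe sets of Vhl therefore passed in the same direction.

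Hif1a encodes HIF-1α, whose amount is set mainly by breakdown of the protein. Its brightest probe set, 1427418_a_at, read 1821 and 1889 with GFP, 1485 and 1428 with GFP-PGC-1α, 2632 and 2628 with GFP+DFO, and 2825 and 2720 with GFP-PGC-1α+DFO. The arrays with DFO were above all those without it, and GFP-PGC-1α was the lowest group. DFO raised it 1.90-fold in PGC-1α myotubes (log2 change 0.93 ± 0.08; limma adjusted p = 0.00121) and 1.42-fold in GFP myotubes (0.50 ± 0.08; limma adjusted p = 0.00908). The rise in GFP myotubes was not called without GFP replicate 1 (limma adjusted p = 0.0502) or GFP+DFO replicate 1 or 2 (0.0687 and 0.0684), nor on the spike-in scale (0.57; limma adjusted p = 0.0521). With the construct its change was -0.35 ± 0.08 without DFO (limma adjusted p = 0.0549) and 0.08 ± 0.08 under DFO (limma adjusted p = 0.583), where the spike-in scale gave 0.58 (limma adjusted p = 0.0451) beside an all-gene median of 0.45. The change without DFO passed among genes above the median level (limma adjusted p = 0.00892), with a floor at the 25th percentile (0.0396) and with trend and robust options (0.000811).

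Of the other Hif1a probe sets, 1416035_at read 229 and 294 with GFP, 238 and 229 with GFP-PGC-1α, 422 and 417 with GFP+DFO, and 524 and 518 with GFP-PGC-1α+DFO. It rose with DFO by 0.69 ± 0.14 in GFP and by 1.16 ± 0.14 in PGC-1α myotubes on the log2 scale (limma adjusted p = 0.0267 and 0.00542). The probe set 1448183_a_at, at 359 to 619, had 0.39 ± 0.24 and 0.45 ± 0.24 and did not pass (limma adjusted p = 0.341 and 0.255), and the dimmest, 1431981_at, at 42.2 to 73.7, had -0.05 ± 0.28 and 0.14 ± 0.28 (limma adjusted p = 0.924 and 0.768). The 2 arrays of GFP-PGC-1α+DFO read 392 and 619 on 1448183_a_at, so its spread there was wide.

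Epas1 encodes HIF-2α, an alpha subunit known for its role in blood vessels. Its probe set 1435436_at read 81.9 and 78.4 with GFP, 146 and 181 with GFP-PGC-1α, 39.4 and 56.1 with GFP+DFO, and 124 and 88.8 with GFP-PGC-1α+DFO. The groups did not overlap, and in each pair the arrays with the construct were the higher and those with DFO the lower. The rise with PGC-1α under DFO was 2.24-fold (log2 change 1.16 ± 0.25; limma adjusted p = 0.0319). That without DFO was of like size, 1.02 ± 0.25, but did not pass (limma adjusted p = 0.0657). Their difference, the interaction, was 0.14 (95% interval -0.75 to 1.03, limma adjusted p = 0.874). The change without DFO passed with a floor at the 25th percentile (limma adjusted p = 0.0364) and with trend and robust options (0.00846), and in no other alternative. The call under DFO ended without GFP replicate 1 or 2 (limma adjusted p = 0.0647 for each), GFP-PGC-1α replicate 1 or 2 (0.0579 for each), GFP+DFO replicate 1 or 2 (0.146 and 0.0611) or GFP-PGC-1α+DFO replicate 1 (0.0908), and with the replicate number as a block (0.0637). With DFO its change was -0.77 ± 0.25 in GFP myotubes (limma adjusted p = 0.0839) and -0.63 ± 0.25 in PGC-1α myotubes (limma adjusted p = 0.133). The change in GFP myotubes passed with trend and robust options (limma adjusted p = 0.0264). Its other probe set read 3.33 to 17.5, below the 25th percentile of every array (18.6 to 21.8), and gave no usable value.

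Arnt encodes the partner shared by both alpha subunits and is not regulated by oxygen through hydroxylation. Its brightest probe set, 1419996_s_at, read 585 and 510 with GFP, 472 and 486 with GFP-PGC-1α, 551 and 510 with GFP+DFO, and 401 and 315 with GFP-PGC-1α+DFO. The last group was the lowest and overlapped no other, while GFP and GFP+DFO overlapped. It did not pass in any comparison as fitted. Its change with PGC-1α under DFO was -0.58 ± 0.15 (limma adjusted p = 0.0518) and with DFO in PGC-1α myotubes -0.43 ± 0.15 (limma adjusted p = 0.0935), and in GFP myotubes DFO gave -0.04 (95% interval -0.42 to 0.33). The change with PGC-1α under DFO passed with the mean of its probe sets (-0.65; limma adjusted p = 0.0253), among genes above the median level (0.00649), with a floor at the 25th percentile (0.0312), with trend and robust options (0.00267) and without GFP-PGC-1α+DFO replicate 1 (0.0286). That with DFO in PGC-1α myotubes passed with the mean of probe sets (-0.61; limma adjusted p = 0.0204), among genes above the median level (0.0202), with trend and robust options (0.0144) and without the same array (0.0396). On the scale of the spike-ins without trp these changes were 0.04 and 0.01, where the medians of all genes stood at 0.57 and 0.45, so Arnt lay below the median gene on that scale too.

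Arnt had the most probe sets, 5. The probe set 1421721_a_at read 313 and 333 with GFP, 269 and 278 with GFP-PGC-1α, 284 and 254 with GFP+DFO, and 191 and 186 with GFP-PGC-1α+DFO. It fell under DFO with the construct by 0.51 ± 0.10 and with DFO in PGC-1α myotubes by 0.54 ± 0.10 on the log2 scale (limma adjusted p = 0.0362 and 0.0218). The probe sets 1437042_at and 1425064_at had changes of -0.48 and -0.15 in the first of these comparisons and -0.37 and -0.47 in the second, and did not pass (limma adjusted p = 0.0914, 0.52, 0.133 and 0.0564). The dimmest, 1449696_at, read 6.65 to 28.4, near or below the 25th percentile of the arrays. It passed downward with PGC-1α under DFO (limma adjusted p = 0.0499), where it read 6.65 and 7.73 against 28.4 and 14.9. Its log2 changes, -1.52 there and -1.23 with DFO in PGC-1α myotubes, entered the mean of the Arnt probe sets. The sizes given for that mean therefore rest partly on readings this dim.

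**Figure D2:**
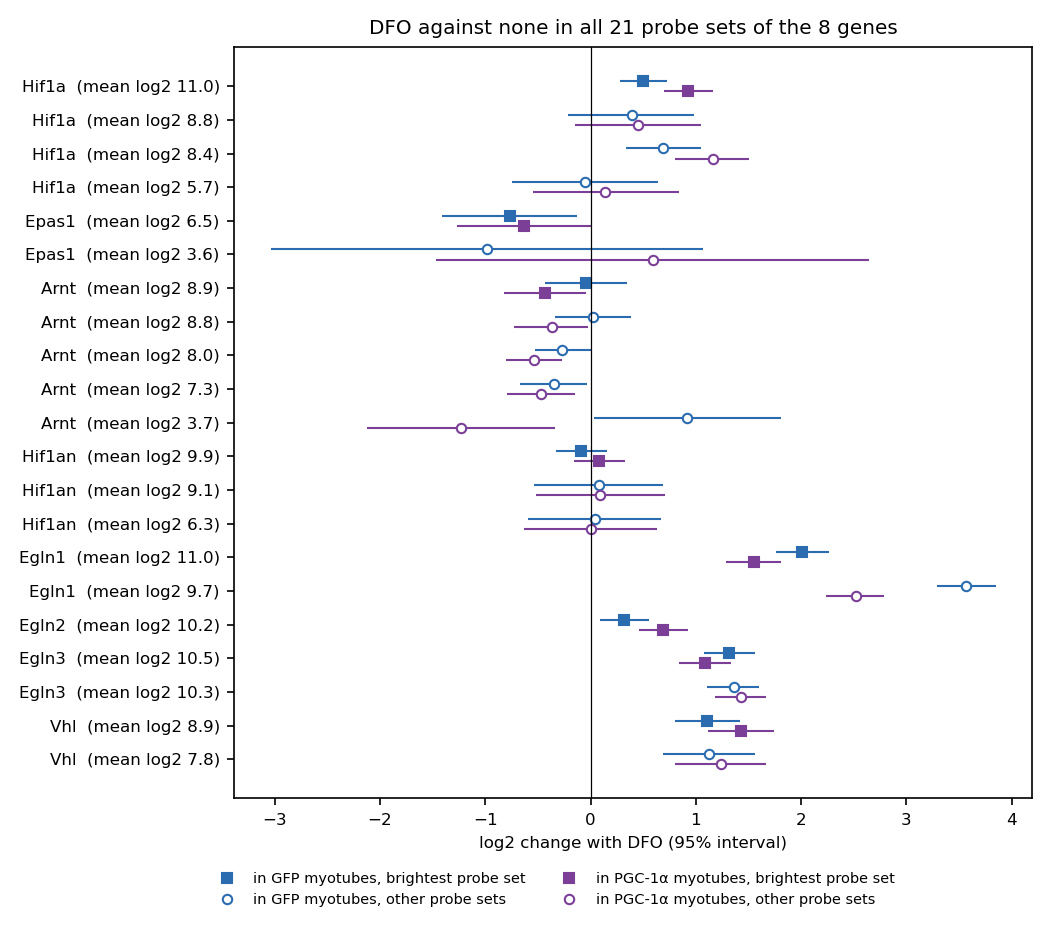
The log2 change with DFO (horizontal axis) in GFP myotubes and in PGC-1α myotubes is plotted for all 21 probe sets of the 8 genes, with 95% intervals from the fit of every probe set; squares are the brightest probe set of a gene and open circles the others. The Egln1, Egln3 and Vhl probe sets lie to the right of 0 in both backgrounds, and the second Egln1 probe set lies furthest right, at 3.57 and 2.52.

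The comparisons with PGC-1α and those with DFO can be read side by side for the hydroxylases. Without DFO the construct gave log2 changes of 0.25 for Egln1, -0.65 for Egln2 and -0.99 for Egln3, so the 3 prolyl hydroxylases did not move together, and 2 of the 3 passed. With DFO in GFP myotubes they had 2.01, 0.32 and 1.32, and all 3 passed. Lists of this kind were not compared by a test.

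**Figure D3:**
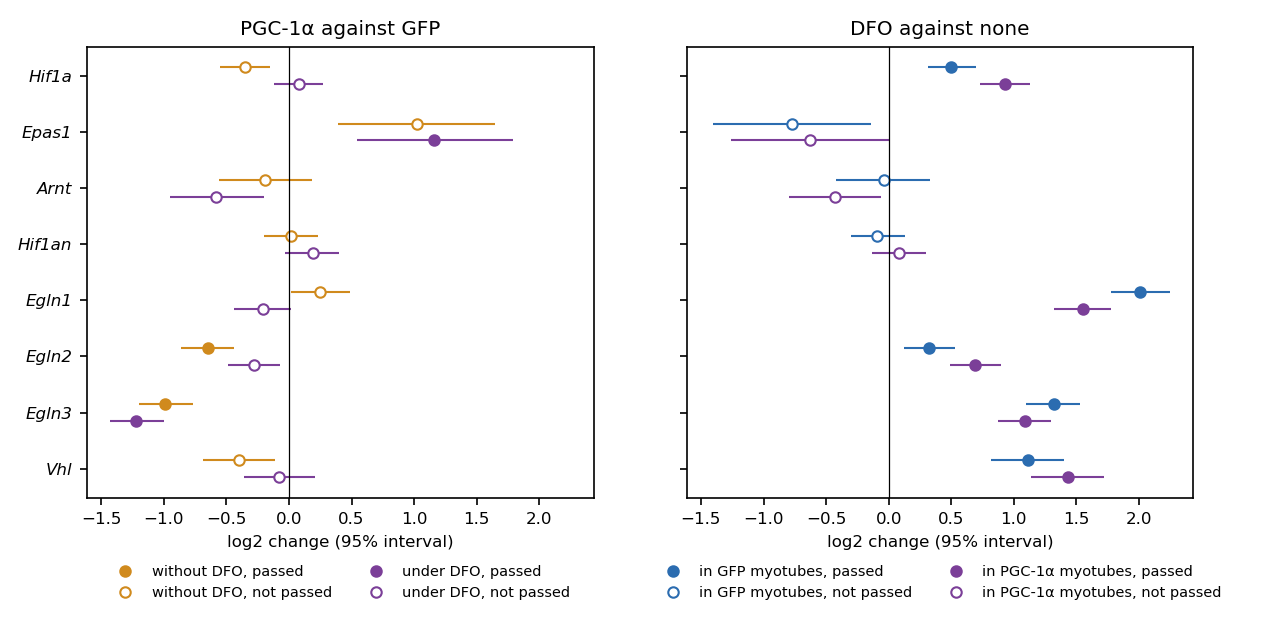
The log2 change (horizontal axis) of the brightest probe set of each gene is plotted with its 95% interval, for PGC-1α against GFP on the left and DFO against none on the right; filled points passed an adjusted p of 0.05. Egln3 lies left of 0 with the construct (-0.99 and -1.22) and right of 0 with DFO (1.32 and 1.09), and Egln1 lies furthest right with DFO.

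Whether the response to DFO differed with PGC-1α was tested as an interaction. None of the 8 members passed (0 of 8 by limma, against 0.555% of all genes, 0.231% upward and 0.324% downward), and 3 had an unadjusted p under 0.05, as did 17.4% of all genes: Hif1a, Egln1 and Egln2. Hif1a rose more with DFO in PGC-1α than in GFP myotubes by a log2 difference of 0.43 (95% interval 0.14 to 0.71; limma adjusted p = 0.16), and Egln2 by 0.37 (0.08 to 0.66; limma adjusted p = 0.206). For Egln1 the difference was -0.47 (95% interval -0.80 to -0.14; limma adjusted p = 0.177), and its second probe set gave -1.05 (-1.44 to -0.66; limma adjusted p = 0.103). With eBayes under trend and robust options 3 members passed, Hif1a, Egln1 and Egln2 (limma adjusted p = 0.00646, 0.00833 and 0.043), and in a fit of genes above the median level 2, Hif1a and Egln1 (0.0354 and 0.0398). Calls over all genes tested rose as well in those settings, to 1467 and 1316 genes from 101. The interval for Egln3 was -0.54 to 0.07 and that for Vhl -0.09 to 0.73. The spike-in scale without trp moved the median interaction of all genes to 0.43 from -0.01, and there the Egln1 value was -0.03 and that of Hif1a 0.86.

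A list of 21 other proteins of the HIF pathway, drawn from knowledge of it, had 18 measured members. They cover other subunits, the rest of the VHL ligase, coactivators and their competitors, and proteins that act on the hydroxylases. With DFO 1 rose and 1 fell in GFP myotubes, against 24.2% of all genes called, and 0 rose and 2 fell in PGC-1α myotubes, against 25.6%. With PGC-1α 0 rose and 1 fell without DFO, and 0 rose and 4 fell under DFO, against 9.73% and 18.9% of all genes called in either direction. Counted in either direction the 4 of 18 were near the background. All 4 were falls, however, and the share of all genes lowered is not given here. The median log2 changes with DFO were 0.09 in GFP and -0.12 in PGC-1α myotubes, beside -0.02 and 0.01 over all genes. With PGC-1α they were -0.10 without and -0.33 under DFO, beside -0.08 and -0.05 over all genes. The ligase subunits Elob, Eloc, Cul2 and Rbx1 did not pass in any comparison. With DFO in GFP and PGC-1α myotubes Elob had -0.13 and -0.17, Eloc -0.21 and -0.22, and Cul2 -0.23 and -0.22. Vhl had 1.11 and 1.43. Rbx1 was dim, at 48.6 to 92.4, and had 0.15 and 0.73. The 95% interval of that last value, -0.00 to 1.47, held the value of Vhl.

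Hif3a, which encodes another alpha subunit, read 246 on both GFP arrays and 357 and 364 with GFP+DFO. It rose with DFO in GFP myotubes by 0.55 ± 0.12 on the log2 scale (limma adjusted p = 0.0277), a call that ended without GFP replicate 1 or 2 (0.107 and 0.0962), without GFP+DFO replicate 1 or 2 (0.121 and 0.134), with the mean of its probe sets (0.288) and on the spike-in scale (0.106). In PGC-1α myotubes it read 232 and 259 without and 282 and 340 with DFO, a change of 0.34 that did not pass (limma adjusted p = 0.107).

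Cited2 encodes a protein that competes with HIF-α for p300 and CBP and is itself a known HIF target. It read 3397 and 3378 with GFP, 3121 and 3096 with GFP-PGC-1α, 3926 and 3939 with GFP+DFO, and 2047 and 2123 with GFP-PGC-1α+DFO. The last group was far below the other 3. PGC-1α under DFO lowered it by 0.92 ± 0.07 (limma adjusted p = 0.00217) and DFO in PGC-1α myotubes by 0.58 ± 0.07 (limma adjusted p = 0.00484) on the log2 scale, and both calls held without any 1 array. In GFP myotubes DFO gave 0.22 ± 0.07 (limma adjusted p = 0.102), and the interaction was -0.79 (95% interval -1.06 to -0.52; limma adjusted p = 0.0601). On the spike-in scale the called changes were -0.41 and -0.22 and did not pass (limma adjusted p = 0.107 and 0.325), where the all-gene medians stood at 0.45 and 0.36. Its relative Cited4 read 63.1 and 80.6 with GFP-PGC-1α, and 18.9 and 8.94 with GFP-PGC-1α+DFO, below the 25th percentiles of those arrays (20.9 and 19.3). It passed downward with DFO in PGC-1α myotubes (limma adjusted p = 0.0139), with no size given for readings so dim, a call lost without GFP-PGC-1α replicate 1 or 2 (0.0546 and 0.068) and with the mean of its probe sets (0.0868).

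Usp20 encodes a deubiquitinase that VHL binds. It read 573 and 543 with GFP, 282 and 314 with GFP-PGC-1α, 387 and 403 with GFP+DFO, and 244 and 231 with GFP-PGC-1α+DFO, and the 4 groups did not overlap. PGC-1α lowered it by 0.91 ± 0.10 without DFO and by 0.73 ± 0.10 under DFO (limma adjusted p = 0.0081 and 0.00771), and DFO lowered it by 0.50 ± 0.10 in GFP myotubes (limma adjusted p = 0.0182), all on the log2 scale. On the spike-in scale these changes were -0.70, -0.23 and -0.43 and none was called (limma adjusted p = 0.0876, 0.348 and 0.154), with SEs of 0.17 against 0.10. The first also ended without GFP replicate 1 (0.0551) or GFP-PGC-1α replicate 1 (0.0598), the second without GFP+DFO replicate 1 or 2 (0.0607 and 0.0646), and the third without GFP replicate 1 or 2 (0.0873 and 0.0557) or GFP+DFO replicate 1 or 2 (0.111 and 0.0881). Siah1a, a ubiquitin ligase for the EGLN enzymes, and Os9, which binds them, fell with PGC-1α under DFO by 0.34 ± 0.08 and 0.46 ± 0.10 (limma adjusted p = 0.0388 and 0.0349), and on the spike-in scale both turned to rises that did not pass, 0.16 and 0.04. The Siah1a call ended without any 1 of the 8 arrays, with adjusted p up to 0.19, and that of Os9 without each array except GFP-PGC-1α+DFO replicate 1, with adjusted p up to 0.173.

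**Figure D4:**
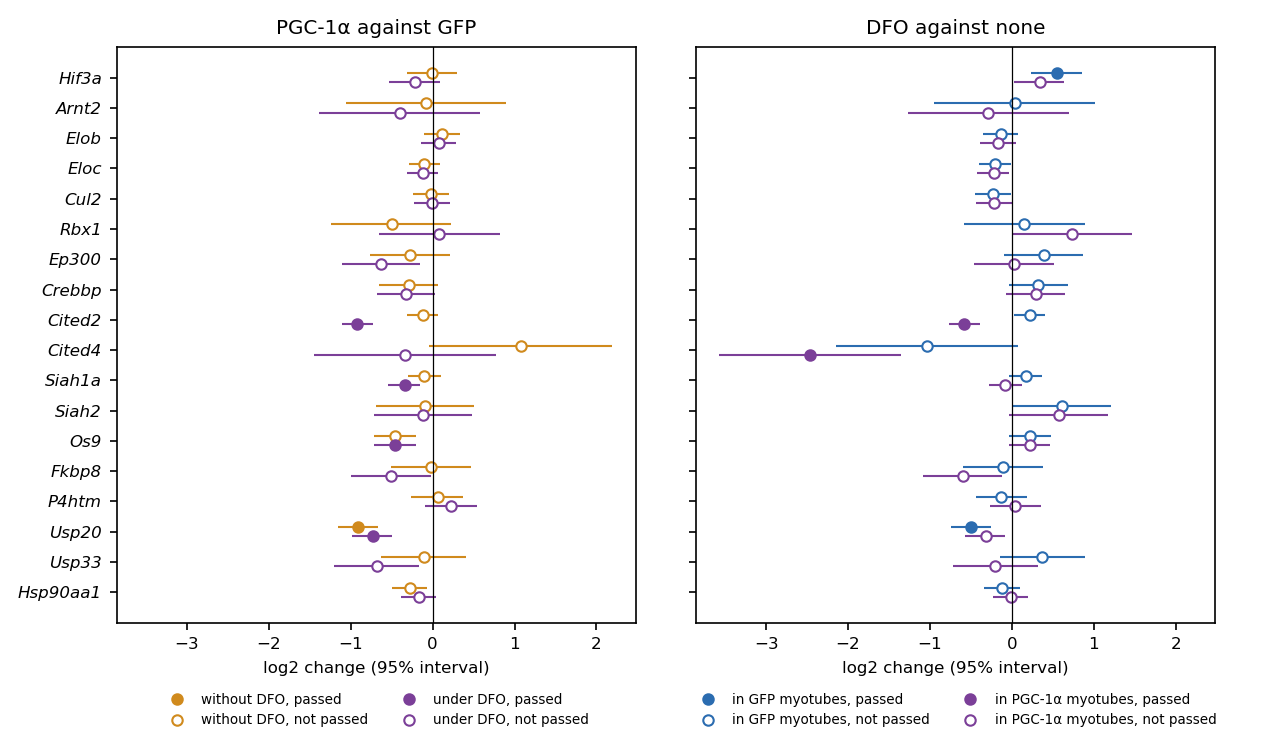
The log2 change (horizontal axis) of 18 other HIF pathway genes is plotted with its 95% interval, for PGC-1α against GFP on the left and DFO against none on the right; filled points passed an adjusted p of 0.05. Most points are open and near 0, with Cited2 at -0.92 and Usp20 at -0.91 and -0.73 among the filled points on the left. The filled Cited4 point on the right rests on readings below the 25th percentile of the GFP-PGC-1α+DFO arrays.

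Among 24 measured genes that HIF is known to activate, 21 rose with DFO in GFP and 20 in PGC-1α myotubes, and 0 fell by limma in either, with medians of 1.74 and 1.59. Of all genes 11.8% rose and 12.5% fell in GFP, and 11.4% rose and 14.2% fell in PGC-1α myotubes. An unadjusted p under 0.05 was met by 21 of the 24 in each. Slc2a1, the glucose transporter GLUT1, read 945 and 897 with GFP, 795 and 772 with GFP-PGC-1α, 7505 and 7468 with GFP+DFO, and 7063 and 6316 with GFP-PGC-1α+DFO. Car9, a carbonic anhydrase, read 37.0 and 49.2 with GFP, 18.0 and 33.3 with GFP-PGC-1α, 1239 and 1288 with GFP+DFO, and 1004 and 1057 with GFP-PGC-1α+DFO. The reading of 18.0 lay below the 25th percentile of its array (18.6), so the size of its rise in PGC-1α myotubes rests on a dim baseline. Vegfa, a growth factor for blood vessels, read 932 and 1019 with GFP, 1615 and 1619 with GFP-PGC-1α, 2264 and 2431 with GFP+DFO, and 2691 and 2763 with GFP-PGC-1α+DFO. These 3 passed with DFO in each background, and Vegfa also rose with PGC-1α without DFO, by 0.73 ± 0.09 on the log2 scale (limma adjusted p = 0.012). That last call ended without GFP replicate 1 (0.0665), without GFP-PGC-1α replicate 1 or 2 (0.084 and 0.0674), in a fit of only these groups (0.0864) and on the scale of the spike-ins without trp (0.0567). PGC-1α moved 4 of the 24 up and 3 down without DFO, and 1 up and 3 down under DFO, with medians of 0.11 and -0.16. Of all genes 9.73% and 18.9% were called in these comparisons, so the 4 of 24 called under DFO were near the background.

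Genes whose pattern over the 8 arrays was most like that of a member were sought for the 5 members that were called in any comparison and lay above the median level. Pearson's r of log2 intensity is a description here, over 8 arrays that share 4 groups. For Egln1 the closest of 9095 genes were Rap2a, Slc41a2 and Apln (r = 0.998, 0.998 and 0.997), and 478 genes had r over 0.95. For Egln3 they were Ing1, Rhoq and Rab2a (r = 0.996, 0.994 and 0.994), with 216 genes over 0.95. For Vhl they were Suco, Srsf9 and P4hb (r = 0.998, 0.997 and 0.997), with 513 over 0.95, and for Hif1a Fam50a, Rassf1 and Tmem63a (r = 0.998, 0.995 and 0.994), with 248. For Egln2 they were Yeats4, Clptm1l and Sdf2 (r = 0.993, 0.993 and 0.991), with 98. Egln2, which fell with the construct and rose with DFO by small amounts, had the fewest such genes of the 5. Among these 15 genes Apln, a secreted peptide, had the largest change with DFO, 4.83 and 4.22 on the log2 scale.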

How the data were processed

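The deposited table holds probe-set intensities on a linear scale for 8 Affymetrix mouse arrays. The background correction, probe summary and scaling that the authors applied are not given in the sources used here. Values were log2-transformed as deposited, with no pseudocount, and 968 to 1082 values per array were exactly 1. Of 45101 probe sets 34945 had a single symbol in the platform annotation. Each of 18193 genes was represented by its probe set of highest mean log2 value. All 8 arrays entered a linear model of group means in limma 3.58.1 (R 4.3.3), leaving 4 residual degrees of freedom beside 1.3 from the prior, with two-sided Benjamini-Hochberg adjusted p-values over all genes, called at 0.05. There were 5 contrasts, the construct and DFO each at both levels of the other, and their interaction. Log2 changes are given ± SE from limma, with 95% intervals from its moderated spread. An exact permutation test of 2 arrays against 2 cannot go below 0.333, so no such test was used. The number of arrays limits the precision. Levels of different probe sets were compared to choose a gene’s brightest probe set and genes above the median level. They were also used to place dim readings against the 25th percentile, in the marker sums and in the 5′ to 3′ ratios.

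Named genes were the 8 members, every called gene of the partner list, Vegfa, Car9 and Slc2a1 of the targets, and the 3 genes most correlated with each called member above the median level. Elob, Eloc, Cul2 and Rbx1 were named after their values were seen. Members, lists and alternatives were chosen with earlier results of these data known. Alternatives were 3 scalings between arrays, other choices of probe set, filters and floors on dim values, other limma options, the replicate number as a block, and leaving out each array. Scaling to 24 spike-in probe sets without those of trp, which were dim (1.54 to 21.9), was chosen after seeing the data, as was running every alternative on the named partner genes. Promoter sequences came from RefSeq tables. Python 3.11.15 and matplotlib 3.10.9 drew the plots.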

Additional observations from a re-analysis of the deposited data

How the results depend on the processing

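The 14 called changes of single members kept their direction in all 279 values under the alternatives run, and 39 of those values missed the threshold. Of the 26 changes not called, 31 of 508 alternative values were called and 25 uncalled ones had the other sign. Many of the alternatives leave the difference of group means as it was, so no direction could turn there. Among them are other limma options, the replicate block, a filter by level and leaving out an array of another group. The 279 values are therefore not that many separate checks. Counts of members called depended on the setting, and so did the number of all genes called, given in brackets. For PGC-1α without DFO the count was 2 of 8 (1770 genes). It was 6 with trend and robust options (3746) and 4 with a floor at the 25th percentile (2524). Among genes above the median level it was 5 of 7 (3524, out of fewer genes tested). It was 1 on the scale of all poly-A spike-ins (880) and 0 on that without trp (508). It was 0 in a fit of only these groups (0) and 0 with a fold change of at least 2 (543). For DFO in GFP myotubes the count of 5 (4409) was 3 on each spike-in scale (2920, and 2230 without trp). It was 3 with a fold change of at least 2 (1672). For PGC-1α under DFO the count of 2 (3446) was 5 with trend and robust options (4992). It was 4 on each spike-in scale (3410, and 4044 without trp). It was 1 in a fit of only these groups (861) and 1 with the replicate block (2685). For DFO in PGC-1α myotubes the count of 5 (4662) was 3 with a fold change of at least 2 (1866). For the interaction the count of 0 (101) was 3 with trend and robust options (1467) and 2 among genes above the median level (1316). Leaving out 1 array gave counts of 1 to 2, 3 to 5, 1 to 2, 5 to 6 and 0 to 0 in these 5 comparisons. The fit of only the groups compared has fewer arrays, and the cause of the other shifts was not tested.

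The spike-in scales moved the median change of all genes to 0.13, 0.05, 0.45, 0.36 and 0.28 in the 5 comparisons, and without trp to 0.09, -0.02, 0.57, 0.45 and 0.43, from -0.08, -0.02, -0.05, 0.01 and -0.01. With PGC-1α under DFO, Siah1a was at 0.16 and Os9 at 0.04 on the first scale, and at 0.27 and 0.15 on the second, against falls on the deposited scale. Counts of partner genes called ranged from 0 to 3, 0 to 6, 1 to 8, 0 to 8 and 0 to 1. The number of all genes called also differed between these settings. Deviations of same-numbered arrays correlated between -0.11 and 0.221 over the 6 pairs of groups, highest for GFP+DFO with GFP-PGC-1α+DFO. Such values cannot tell whether the cultures of a replicate number were paired. Besides the count above, the block ended the calls of Egln2 with DFO in GFP myotubes (limma adjusted p = 0.0742) and of Epas1, Siah1a and Os9 with PGC-1α under DFO (0.0637, 0.0687 and 0.0668). The 8 arrays and the low signal of Epas1 and Cited4 limit what could be called.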
